A study of Mus musculus with 8 samples.

Results

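The mouse genome encodes a set of enzymes that attach glucuronic acid or sulfate to hormones, bilirubin, bile acids and drugs, and this account follows those genes through liver RNA profiles of mice that received a hairpin RNA directed at Thbs2. Members were taken by name: every row called Ugt1, Ugt2 or Ugt3 with a letter a or b and a number, and every row called Sult with a number, letter and number. This gave 42 genes, with 42 among the 24662 features of the CMV table and 36 among the 27261 features of the αSMA table. The 4 groups of 2 liver libraries were αSMA shThbs2 (replicates 3 and 4) with its control αSMA NC (replicates 3 and 4), and CMV shThbs2 (replicates 1 and 2) with its control CMV NC (replicates 1 and 2). Every group, the controls included, received an adeno-associated virus of serotype 6 (AAV6), named for the αSMA promoter (smooth muscle actin, active in contractile and stellate-derived cells) or the broadly active viral CMV promoter. The labels describe NC no further, and age, sex, strain and any liver injury are not given in the sources used here. Poly(A) RNA of whole liver was sequenced on the DNBSEQ-T7 by Frasergen for αSMA and on the HiSeq2500 by Biomarker Technologies for CMV, so a difference of vector cannot be told apart from one of platform or provider. The design text counts 2 mice a group; were a library not 1 mouse, the p-values would describe technical spread alone.

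As background, UDP-glucuronosyltransferases (Ugt) sit in the membrane of the endoplasmic reticulum and transfer glucuronic acid from UDP-glucuronic acid, while cytosolic sulfotransferases (Sult) transfer sulfate from the donor PAPS. Both make their substrates more soluble, so that carriers can move the conjugates into bile or blood. Hepatocytes express many of these genes, under the control of liver factors such as HNF1 and HNF4, of xenobiotic receptors such as CAR, PXR and AhR, and, for several in mouse liver, of sex hormones and growth hormone.

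Values are FPKM (fragments per kilobase of transcript, scaled to the mapped fragments), a measure per transcript length, so levels of different genes are set side by side within a table. A change is the difference of mean log2(FPKM + 1), shThbs2 minus NC, with its standard error (SE), which understates the change of genes of low level. Folds are ratios of the mean FPKM of 2 libraries. Adjusted p-values are limma's, corrected over all features tested in the arm, with a threshold of 0.05. Thbs2 itself had 0.85 and 1.14 FPKM in αSMA shThbs2 livers, against 1.37 and 1.47 in αSMA NC livers, and 0.695 and 0.614 FPKM in CMV shThbs2 livers, against 1.27 and 0.922 in CMV NC livers. The groups did not overlap, the mean differing by -29.9% under αSMA and -40.4% under CMV. Groups also did not overlap for 74.9% and 42% of all features tested in these arms. With 2 against 2 libraries the exact permutation p (two-sided) is 0.333 in each arm, the smallest it can be. In the limma fit Thbs2 did not pass under αSMA (adjusted p = 0.269). Under CMV it averaged under 1 FPKM and was not tested. Libraries of a group correlated at 0.974 to 0.988 across tested features on the log2 scale. Mitochondrially encoded genes took 23.1% and 24.6% of the FPKM sum in αSMA shThbs2 livers, against 12.2% and 12.1% in αSMA NC livers, and 13.3% to 15.8% in the CMV libraries. The FPKM sum was 1253740 and 1225210 in αSMA shThbs2 livers, against 941530 and 924060 in αSMA NC livers; the part of these differences in the results below was not tested beyond the rescalings given with them.

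Under the αSMA vector, bilirubin-conjugating Ugt1a1, Ugt1a5, Ugt2b34 and the sulfotransferases Sult1b1 and Sult2a8 rose in shThbs2 livers. Ugt2b5, Ugt2b35, Ugt1a6b and both Ugt3a genes fell. Sult2a7, higher, and Ugt2b37 and the estrogen sulfotransferase Sult1e1, lower, also passed the test, but entered it only through the group in which they were high. Of 36 members in the table, 24 reached a mean of 1 FPKM and were tested (16 Ugt and 8 Sult), 2 were listed at 0 in all 4 libraries, and no untested member exceeded 1.6 FPKM in any library. Past the threshold, 6 were higher and 7 lower, 13 in all, in a comparison in which 36.1% of all features passed (13.3% higher and 22.8% lower). Groups did not overlap for 20 of the 24 tested members, against 74.9% of all features tested. Without adjustment, p was under 0.05 for 6 higher and 10 lower members, 16 in all, against 18.5%, 31.4% and 49.9% of all features. The median change of the tested members was -0.026 (-0.66 for Ugt and 1.06 for Sult), against -0.16 for all features, and the median size of change without sign was 0.89, against 0.48. In 6 of the 24 (Sult2a7, Sult2a2, Sult1e1, Ugt2b37, Ugt2b38 and Ugt1a7c), 1 group averaged under 1 FPKM, so that they were tested only through the other group and had to differ. Of all features tested, 1088 of 13012 were of this kind, a smaller share than among the members. The counts and medians above include these 6, so those figures set against all features are a description only. Their values are given below as a description, and neither their p nor the counts and medians above support a difference in them.

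The number of αSMA calls depended on which libraries were in the fit. The called members kept their sign, but their groups did not overlap, so leaving out a single library could not change it. Without single libraries the change ran from 2.12 to 2.61 for Sult1b1, -0.89 to -0.78 for Ugt3a2 and -3.39 to -1.59 for Sult1e1. Without αSMA NC replicate 3, or without αSMA NC replicate 4, limma passed 0 members (17 and 13 with an unadjusted p under 0.05) and 53 and 46 of all features. Without αSMA shThbs2 replicate 3, 3 members were higher and 3 lower (524 and 587 of all features); without αSMA shThbs2 replicate 4, 4 were higher and 5 lower (1416 and 2721). The lone library of the group was assumed to vary as the other group did. With no filter on low values, Sult1b1, Ugt1a6b and both Ugt3a genes still passed, and the other 9 had an adjusted p of 0.0524 to 0.1001. The all-feature median also moved with the scaling, to -0.51 when every library was brought to the same FPKM sum (4 members higher, 12 lower), to -0.33 when scaled over nuclear features (5 and 10) and to 0.052 with median centring (6 and 6). Of all features called, 36.9% were higher in the scaling used here, against 13.8%, 23.5% and 57.6% under those 3. No member past the threshold changed sign under these scalings.

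**Figure D1:**
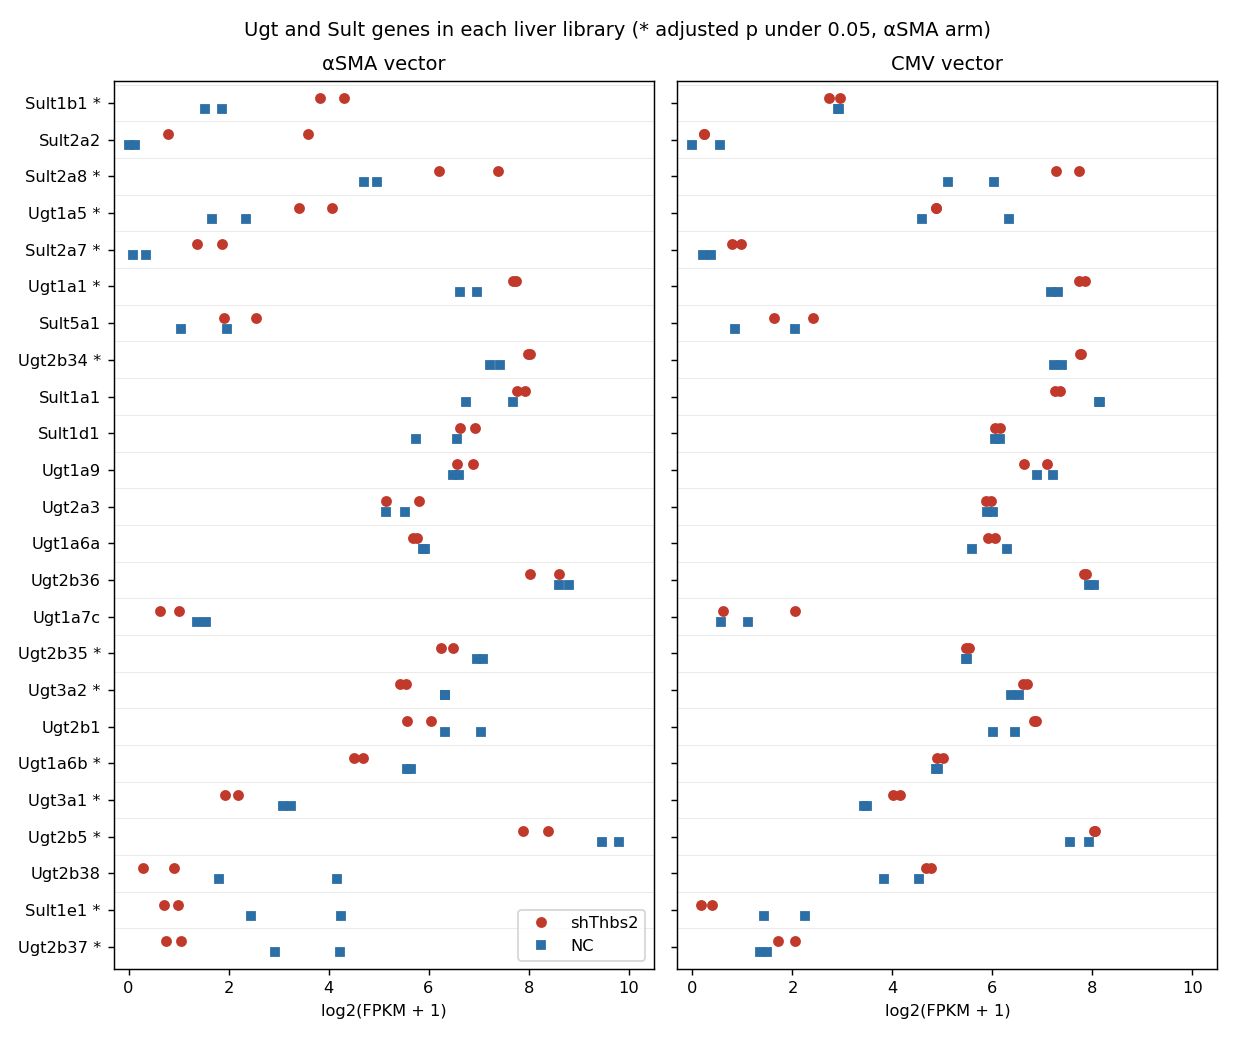
Each point is 1 liver library on a log2(FPKM + 1) axis, shThbs2 as red circles and NC as blue squares, for the 24 members tested under the αSMA vector (left) and the same genes under the CMV vector (right); genes run by their αSMA change and an asterisk marks an adjusted p under 0.05 in that arm. In the left panel Sult1b1 shThbs2 libraries lie at 13.2 and 18.9 FPKM, above 1.90 and 2.64 in NC, while in the right panel all 4 lie between 5.61 and 6.69 FPKM.

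The 9 Ugt1a members share 1 locus on chromosome 1, where each gene's own first exon is spliced to the same exons 2 to 4 (GENCODE M21 on GRCm38; exon 2 at chr1:88215044-88215175, plus strand). The junctions of the 5 members that carry the Ugt1a results show how much of their sequence is common, with the last 24 bases of exon 1 in lower case and the first 24 bases of the shared exon 2 in capitals.
Ugt1a1: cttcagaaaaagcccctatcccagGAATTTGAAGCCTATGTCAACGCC
Ugt1a5: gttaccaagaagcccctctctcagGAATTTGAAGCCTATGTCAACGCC
Ugt1a6a: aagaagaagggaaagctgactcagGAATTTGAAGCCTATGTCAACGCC
Ugt1a6b: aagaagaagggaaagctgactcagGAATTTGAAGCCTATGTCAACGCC
Ugt1a9: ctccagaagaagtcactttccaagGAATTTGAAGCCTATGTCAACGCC
The lower-case ends of Ugt1a6a and Ugt1a6b are identical, and Ugt1a2 ends in the same 24 bases as Ugt1a5. Of all 50-base stretches of the transcript, 58.2% of those of Ugt1a1, 64.0% of Ugt1a5, 78.6% of Ugt1a6b and 97.7% of Ugt1a6a occur in another gene, so their FPKM depends on how the authors' counting shared such fragments, a step the sources used here do not describe.

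Ugt1a1, the enzyme that conjugates bilirubin, had 213 and 207 FPKM in αSMA shThbs2 livers, against 124 and 98.5 in αSMA NC livers. Both treated libraries were above both controls, a 1.88-fold higher mean (change 0.92, SE 0.18, limma adjusted p = 0.0191), although scaled to the same FPKM sum the change was 0.51 (adjusted p = 0.0565). Ugt1a5, another first exon of the locus, had 15.7 and 9.68 FPKM in αSMA shThbs2 livers, against 4.07 and 2.17 in αSMA NC livers, with no overlap and a 4.07-fold higher mean (change 1.74, SE 0.32, adjusted p = 0.0166). Ugt1a6b, of the subgroup that acts on small planar phenols, fell to 24.9 and 21.9 FPKM in αSMA shThbs2 livers, against 48.9 and 46.3 in αSMA NC livers, a 2.03-fold lower mean (change -0.996, SE 0.15, adjusted p = 0.0122). Its near-identical copy Ugt1a6a did not pass (change -0.18, 95% interval -0.55 to 0.19, adjusted p = 0.355). Neither did Ugt1a9, which also acts on phenols (change 0.18, interval -0.27 to 0.63, adjusted p = 0.450), nor Ugt1a7c (change -0.65, adjusted p = 0.0646). Ugt1a6a, Ugt1a9 and Ugt2a3 changed sign under at least 1 scaling. The remaining Ugt1a members, Ugt1a2, Ugt1a8 and Ugt1a10, stayed at or under 1.6 FPKM and were not tested; Ugt1a8 was listed at 1.6 in αSMA shThbs2 replicate 3 and at 0 in the other 3 libraries.

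Ugt2b enzymes conjugate steroids, bile acids and many drugs, and their genes lie side by side on chromosome 5 with Ugt2a genes, 10 members in all. Ugt2b5 was the most abundant member of all in αSMA NC livers, with 336 and 237 FPKM in αSMA shThbs2 livers, against 705 and 893 in αSMA NC livers. The 2.79-fold lower mean passed the test (change -1.49, SE 0.24, adjusted p = 0.0133). Ugt2b37 had 1.08 and 0.67 FPKM in αSMA shThbs2 livers, against 6.57 and 17.8 in αSMA NC livers (change -2.68, SE 0.44, adjusted p = 0.0135), and was tested only because its NC level is high. Its controls differed more from each other than its treated libraries did, and the treated mean was 13.9-fold lower. Ugt2b38 had 0.88 and 0.23 FPKM in αSMA shThbs2 livers, against 2.51 and 17.0 in αSMA NC livers, but with so wide a control spread it did not pass (change -2.38, SE 0.76, adjusted p = 0.0604). Ugt2b35 had 74.6 and 88.6 FPKM in αSMA shThbs2 livers, against 124.6 and 134 in αSMA NC livers (change -0.67, SE 0.17, adjusted p = 0.0335), and with median centring the change was -0.45 (adjusted p = 0.0674). Ugt2b34 went the other way, with 252 and 262 FPKM in αSMA shThbs2 livers, against 149.5 and 172 in αSMA NC livers. Its 1.60-fold higher mean passed (change 0.68, SE 0.16, adjusted p = 0.0298), but scaled to the same FPKM sum the change was 0.27 (adjusted p = 0.223). Ugt2b36, among the 3 most abundant Ugt genes here with Ugt2b5 and Ugt2b34, had 389.8 and 260 FPKM in αSMA shThbs2 livers, against 388 and 444 in αSMA NC livers. Its groups overlapped (change -0.38, interval -0.99 to 0.23, adjusted p = 0.256). Ugt2b1 (change -0.86, adjusted p = 0.0755) and Ugt2a3 (change 0.13, adjusted p = 0.723) did not pass.

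Ugt2b5, Ugt2b37 and Ugt2b38 also resemble each other upstream of their start sites. Over the 250 bases before the RefSeq start (GRCm38.p6, all on the minus strand of chromosome 5), Ugt2b37 and Ugt2b38 were 85.6% identical, Ugt2b38 and Ugt2b5 82.4% and Ugt2b37 and Ugt2b5 73.1% in a global alignment, while no other pair of Ugt2b genes exceeded 62.5%. The 3 sequences are shown because of this likeness, with matches to the searched motifs in capitals.
Ugt2b5: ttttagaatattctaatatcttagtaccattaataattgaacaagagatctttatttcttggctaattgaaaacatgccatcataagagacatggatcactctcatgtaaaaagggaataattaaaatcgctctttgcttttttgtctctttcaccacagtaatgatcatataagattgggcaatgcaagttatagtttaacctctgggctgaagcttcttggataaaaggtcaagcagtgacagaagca
Ugt2b37: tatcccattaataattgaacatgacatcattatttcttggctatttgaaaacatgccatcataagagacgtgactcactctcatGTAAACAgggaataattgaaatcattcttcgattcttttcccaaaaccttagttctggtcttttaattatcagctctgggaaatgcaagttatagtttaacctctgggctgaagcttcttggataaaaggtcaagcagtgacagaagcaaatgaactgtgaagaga
Ugt2b38: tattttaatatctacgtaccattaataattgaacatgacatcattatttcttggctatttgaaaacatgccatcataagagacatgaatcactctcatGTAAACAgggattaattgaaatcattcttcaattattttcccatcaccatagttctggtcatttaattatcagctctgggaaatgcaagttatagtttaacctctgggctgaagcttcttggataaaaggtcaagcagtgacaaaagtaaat
They lie at chr5:87140341-87140590 for Ugt2b5, chr5:87254789-87255038 for Ugt2b37 and chr5:87424204-87424453 for Ugt2b38. The capitals mark TGTTTAC, the core of the forkhead (FOXA) motif, read on the opposite strand, at bases -166 to -160 of Ugt2b37 and -152 to -146 of Ugt2b38, and no such letters stand in the Ugt2b5 window. The FOXA core occurs in 3.65% of 32851 mouse promoters of 300 bases (250 before to 50 after the start, either strand) and in 5 of 39 promoter windows that matched 36 of the members, those of Sult1d1, Ugt1a2, Ugt2b35, Ugt2b37 and Ugt2b38. The HNF1 motif (GTTAAT, any base, then ATT) occurs in 0.399% of promoters and in 8 of the 39 windows, those of Ugt1a1, Ugt1a9, Ugt1a10, Sult1d1, Sult2a3, Sult2a4, Sult2a5 and Sult2a6. Of these genes only Ugt1a1, Ugt1a9 and Sult1d1 were tested in either arm, and the Sult2a genes were listed at 0 in every CMV library. In Ugt1a1, the most abundant Ugt1a member, the HNF1 motif stands at bases -45 to -36, on the opposite strand, in the window chr1:88211709-88211958 (plus strand).
Ugt1a1: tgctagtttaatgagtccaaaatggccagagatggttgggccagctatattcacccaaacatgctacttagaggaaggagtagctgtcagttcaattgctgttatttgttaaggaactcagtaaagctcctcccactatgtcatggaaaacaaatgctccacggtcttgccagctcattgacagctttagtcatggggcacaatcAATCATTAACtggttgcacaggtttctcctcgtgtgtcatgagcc
The core GCGTG, bound by AhR, occurs in 32.4% of promoters and in 6 of the 39 windows, including Ugt1a5 at -49 to -45, and the antioxidant response element TGACNNNGC in 12.4% of promoters and in 0 of the 39. Both strands were read and no searched motif overlapped another in the windows printed. The transcripts themselves are alike too: 41.7% of the 50-base stretches of Ugt2b5, 37.4% of Ugt2b38 and 18.3% of Ugt2b37 occur in another gene, against 2.07% for Ugt2b34 and 0 for Ugt2b1.

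Ugt3a enzymes, which in humans use other UDP-sugars than glucuronic acid, are neighbours on chromosome 15, and both fell. Ugt3a2 had 45.9 and 42.3 FPKM in αSMA shThbs2 livers, against 79.8 and 79.0 in αSMA NC livers (change -0.83, SE 0.15, adjusted p = 0.0153). Ugt3a1 had 2.82 and 3.59 FPKM in αSMA shThbs2 livers, against 7.53 and 8.54 in αSMA NC livers (change -1.11, SE 0.17, adjusted p = 0.0121). Replicates of a group lay close together for both genes, and the treated means were 1.80-fold and 2.51-fold lower.

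Among the sulfotransferases, Sult1b1, which acts on phenols and thyroid hormones, had the smallest p of all members. It had 18.9 and 13.2 FPKM in αSMA shThbs2 livers, against 2.64 and 1.90 in αSMA NC livers, a 7.06-fold higher mean (change 2.37, SE 0.23, limma adjusted p = 0.00615). Sult2a8, which sulfates bile acids in mouse liver, had 166 and 73.1 FPKM in αSMA shThbs2 livers, against 25.2 and 30.4 in αSMA NC livers (change 1.95, SE 0.39, adjusted p = 0.0204). The treated libraries differed more than 2-fold from each other, but both exceeded the controls, with a 4.30-fold higher mean. Its neighbour Sult2a7 was low throughout, with 2.65 and 1.57 FPKM in αSMA shThbs2 livers, against 0.27 and 0.07 in αSMA NC livers (change 1.39, SE 0.25, adjusted p = 0.0159), and was tested only through its level in the treated libraries. Sult1e1, the estrogen sulfotransferase, went the opposite way, with 0.63 and 0.99 FPKM in αSMA shThbs2 livers, against 17.9 and 4.44 in αSMA NC livers. Its controls lay far apart, though both above the treated libraries, and the treated mean was 13.8-fold lower (change -2.49, SE 0.58, adjusted p = 0.0280). It was tested only through its NC level, did not pass with robust empirical Bayes (adjusted p = 0.0646), and its change was -1.59 without αSMA NC replicate 3 and -3.39 without αSMA NC replicate 4.

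Sult1a1 and Sult1d1, the most abundant sulfotransferases in αSMA NC livers, did not pass under the αSMA vector. Sult1a1, the main phenol sulfotransferase of liver, had 219 and 244 FPKM in αSMA shThbs2 livers, against 206 and 107 in αSMA NC livers (change 0.63, interval -0.19 to 1.46, adjusted p = 0.180). Sult1d1, a phenol and catecholamine sulfotransferase of rodents, had 121 and 97.8 FPKM in αSMA shThbs2 livers, against 94.0 and 52.4 in αSMA NC livers (change 0.62, interval -0.16 to 1.40, adjusted p = 0.164). In both genes NC replicate 4 was the lowest library and the groups did not overlap. Sult2a2 had 0.72 and 10.97 FPKM in αSMA shThbs2 livers, against 0.10 and 0 in αSMA NC livers, so that 1 library carried its level (change 2.11, adjusted p = 0.112). Sult5a1 did not pass either (change 0.72, adjusted p = 0.183), and the other 8 Sult members in the table were not tested, at no more than 1.44 FPKM.

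The make-up of the Ugt transcripts differed between the αSMA groups in step with these values. The Ugt genes summed to 1651 and 1359 FPKM in αSMA shThbs2 livers, against 1904 and 2249 in αSMA NC livers, and the Sult genes to 535 and 446, against 350.4 and 199. Ugt2b5 took 20.4% and 17.4% of the Ugt sum in αSMA shThbs2 livers, against 37.0% and 39.7% in αSMA NC livers. The Ugt1a genes together took 25.9% and 28.3% in αSMA shThbs2 livers, against 17.2% and 13.6% in αSMA NC livers. Within a library, Ugt2b5 can be set against Ugt1a1 with no scaling between libraries. Ugt2b5 stood at 1.58 and 1.15 times the level of Ugt1a1 in αSMA shThbs2 livers, against 5.67 and 9.07 times in αSMA NC livers. This pair joins a gene called lower and a gene called higher, so the ratio restates their changes and is no separate support. In CMV livers that ratio was 1.26 and 1.14 in shThbs2, against 1.54 and 1.30 in NC, and the Ugt2b5 share was 17.4% and 16.9%, against 17.7% and 14.1%. In bulk tissue, fewer cells of a type and less RNA per cell cannot be told apart.

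**Figure D2:**
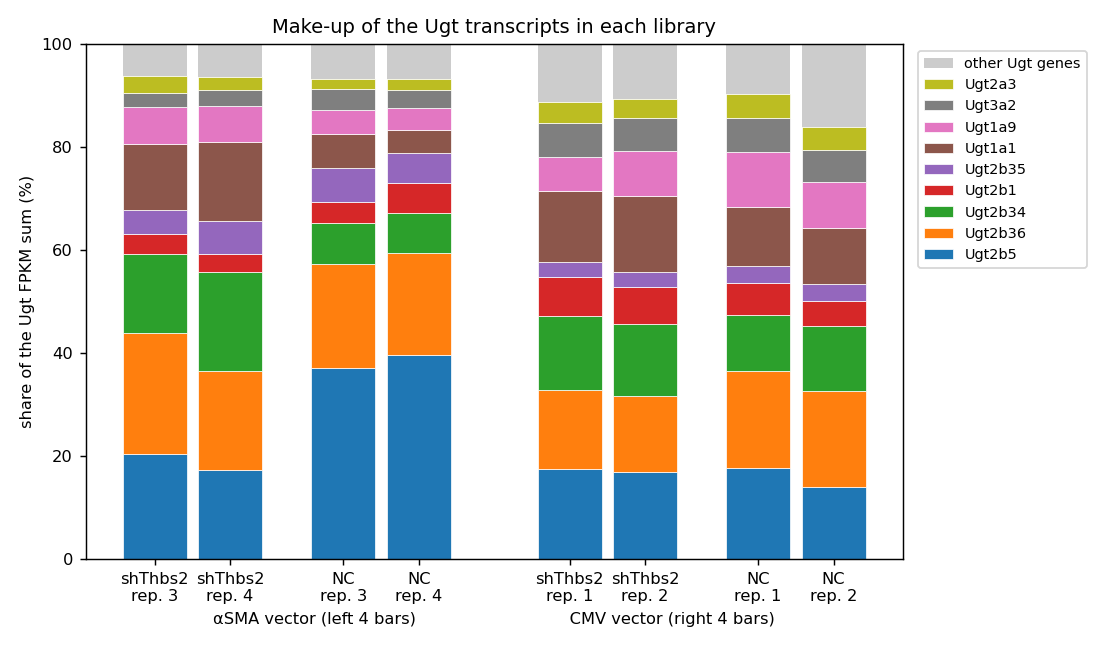
Stacked bars give each gene's share (%) of the summed FPKM of all Ugt genes in each library, shThbs2 left of NC, for the αSMA vector (left 4 bars) and the CMV vector (right 4 bars), with the 9 most abundant Ugt genes in colours and the rest in grey. The blue Ugt2b5 segment is 17.4% and 20.4% in αSMA shThbs2, against 37.0% and 39.7% in αSMA NC, and lies between 14.1% and 17.7% in the 4 CMV libraries.

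Under the CMV vector no Ugt or Sult gene passed the threshold in the limma fit, in a comparison in which 0.0183% of all features did (2 of 10916, both higher). Of 42 members in that table, 22 were tested (16 Ugt and 6 Sult), 9 were listed at 0 in all 4 libraries, and the 20 untested members stayed at or under 1.52 FPKM. Without adjustment, p fell under 0.05 for 8 members, 6 higher and 2 lower, against 10.2% of all features (5.73% and 4.47%). Groups did not overlap for 12 of the 22, against 42% of all features, and the median change was 0.13, against 0.032. In 2 of the 22, Sult1e1 and Ugt1a7c, 1 group averaged under 1 FPKM, so that they too were tested only through the other group. The same held for 340 of the 10916 features. Without CMV NC replicate 1, 3 members were higher and 3 lower past the threshold (87 and 65 of all features), and without CMV NC replicate 2, 1 and 1 (74 and 57); without either CMV shThbs2 library limma passed 0 (7 without replicate 1 and 6 without replicate 2 at an unadjusted p under 0.05).

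The members with the smallest p in the CMV comparison, none past the threshold, included genes of both families. Sult1a1 had 151 and 161 FPKM in CMV shThbs2 livers, against 281 and 283 in CMV NC livers, with replicates close together (change -0.85, SE 0.12, adjusted p = 0.137). Sult2a8 had 213 and 153 FPKM in CMV shThbs2 livers, against 64.2 and 33.7 in CMV NC livers (change 1.93, SE 0.32, adjusted p = 0.168). Sult1e1 had 0.121 and 0.315 FPKM in CMV shThbs2 livers, against 1.70 and 3.73 in CMV NC livers (change -1.56, SE 0.28, adjusted p = 0.222), a low gene that was tested only through NC and had to differ. In Sult1a1 and Sult2a8 both treated libraries lay on the same side of both controls. Ugt3a1 had 16.7 and 15.1 FPKM in CMV shThbs2 livers, against 10.2 and 9.72 in CMV NC livers (change 0.62, SE 0.13, adjusted p = 0.276). Ugt1a1 had 210.1 and 229 FPKM in CMV shThbs2 livers, against 159 and 143 in CMV NC livers (change 0.54, SE 0.13, adjusted p = 0.296). Ugt2b34 had 217 and 216 FPKM in CMV shThbs2 livers, against 149 and 168 in CMV NC livers (change 0.45, SE 0.12, adjusted p = 0.343). These 3 Ugt genes also showed no overlap between groups. Among the other abundant members, Ugt2b5 had 265 and 262 FPKM in CMV shThbs2 livers, against 244 and 186 in CMV NC livers (change 0.31, interval -0.081 to 0.69, adjusted p = 0.568). Ugt2b36 had 234 and 227 FPKM in CMV shThbs2 livers, against 259 and 244 in CMV NC livers (change -0.12, interval -0.40 to 0.16, adjusted p = 0.752). Sult1d1 had 64.96 and 70.4 FPKM in CMV shThbs2 livers, against 65.3 and 69.8 in CMV NC livers, its groups overlapping (interval -0.30 to 0.31, adjusted p = 0.999).

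The difference between the vectors was tested in a model of all 8 libraries, as the αSMA change minus the CMV change, for the 22 members tested in both arms. It passed for 11 of them, 3 with a higher and 8 with a lower change under αSMA, in a test that 25.1% of 10245 features passed (7.71% and 17.4%). The median difference over all features was -0.22. The difference was largest in size for Ugt2b37 at -3.14 (adjusted p = 0.00658), with a change of -2.68 under αSMA and 0.47 under CMV; like Ugt2b38, it was tested under αSMA only through NC. For Sult1b1 it was 2.45 (SE 0.28, adjusted p = 0.00269), with a CMV change of -0.086. For Ugt2b5 it was -1.79 (SE 0.30, adjusted p = 0.00755), and for Ugt3a1 -1.73 (SE 0.21, adjusted p = 0.00322), with CMV changes of 0.31 and 0.62. Sult1a1 is the abundant gene with the opposite pattern, 1.48 (SE 0.37, adjusted p = 0.0231), from 0.63 under αSMA and -0.85 under CMV. Members with lower changes under αSMA were Ugt2b37, Ugt2b38, Ugt2b5, Ugt3a1, Ugt2b1, Ugt1a6b, Ugt3a2 and Ugt2b35, and those with higher changes were Sult1b1, Ugt1a5 and Sult1a1. Leaving out single libraries gave 1 to 3 higher and 5 to 7 lower; without CMV shThbs2 replicate 1, or without CMV shThbs2 replicate 2, 1 was higher. Without CMV shThbs2 replicate 2, or without CMV NC replicate 2, 5 were lower. Of all features, 288 to 907 were higher and 457 to 2276 lower in these fits. The difference for Ugt1a5 was 1.46 without CMV NC replicate 2, still past the threshold, and that for Ugt2b38 was -1.75 without αSMA NC replicate 4 (adjusted p = 0.0540). With median centring it did not pass for Ugt2b1 (adjusted p = 0.0620), Ugt2b35 (0.113) and Ugt2b38 (0.0670), and with robust empirical Bayes it did not pass for Ugt1a5 (0.0959) and Ugt2b38 (0.122).

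**Figure D3:**
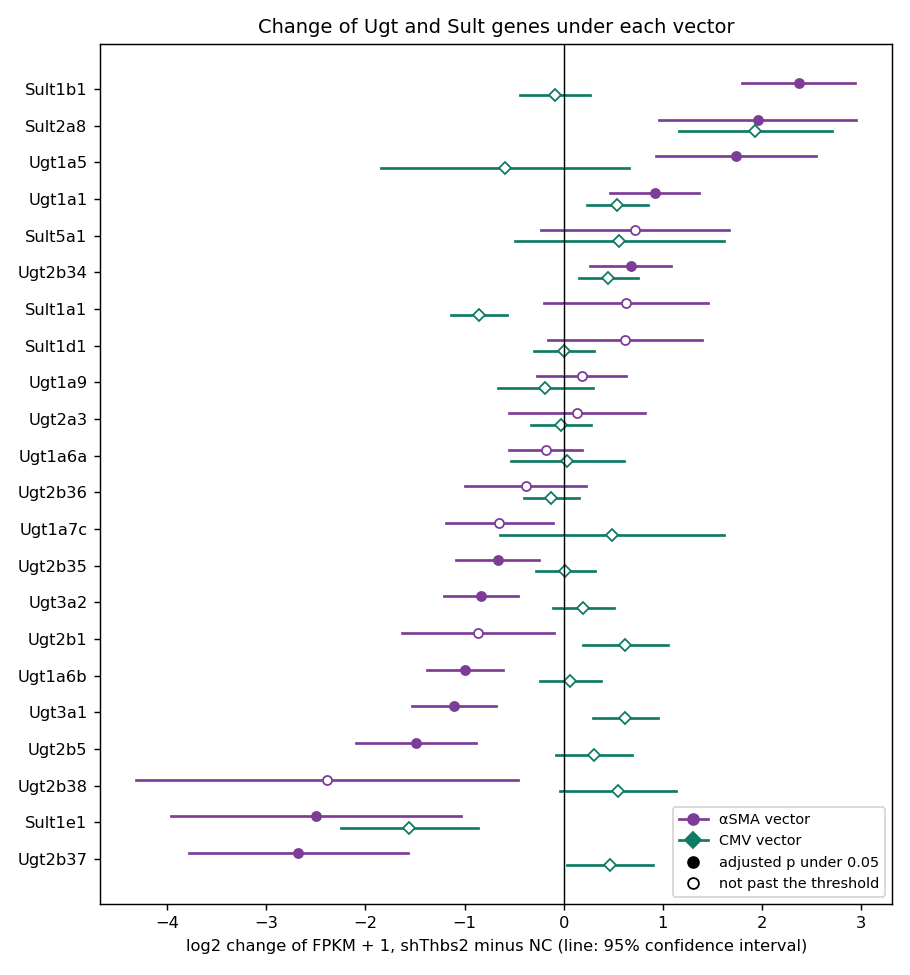
Points are the change in log2(FPKM + 1), shThbs2 minus NC, with 95% confidence intervals as lines, for the 22 members tested under both vectors, αSMA in purple circles above CMV in green diamonds, filled where the adjusted p is under 0.05. The purple points run from -2.68 (Ugt2b37) to 2.37 (Sult1b1), while no green point is filled and Sult2a8 (1.93) and Sult1e1 (-1.56) are the 2 farthest from 0.

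In 11 of the 22 members the groups did not overlap under either vector, against 32.2% of the 10245 features tested under both. Of these members 4 had the same sign under both, against 19.7% of all features: Ugt1a1, Ugt2b34 and Sult2a8 were higher and Sult1e1 was lower in shThbs2. Sult1e1 was tested only through NC in both arms, so its sign there is no support. The difference of their changes did not pass the test, being 0.38 for Ugt1a1 (interval -0.12 to 0.87, adjusted p = 0.224), 0.23 for Ugt2b34 (-0.22 to 0.67, adjusted p = 0.414), 0.023 for Sult2a8 (-1.26 to 1.30, adjusted p = 0.980) and -0.94 for Sult1e1 (-2.54 to 0.66, adjusted p = 0.341). The intervals of Sult2a8 and Sult1e1 are wide enough to hold differences of more than 2-fold either way or in 1 direction. The other 7 (Sult1a1, Ugt2b1, Ugt2b37, Ugt2b38, Ugt2b5, Ugt3a1 and Ugt3a2) had opposite signs under the vectors, against 12.5% of all features. Ugt2b37 and Ugt2b38 were tested under αSMA only through NC, so their sign there is no support either. Over all 22, 7 had the same sign and 15 opposite signs, against 55.8% of all features with the same sign. The 15 include Ugt1a7c, which was tested only through 1 group in each arm.

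**Figure D4:**
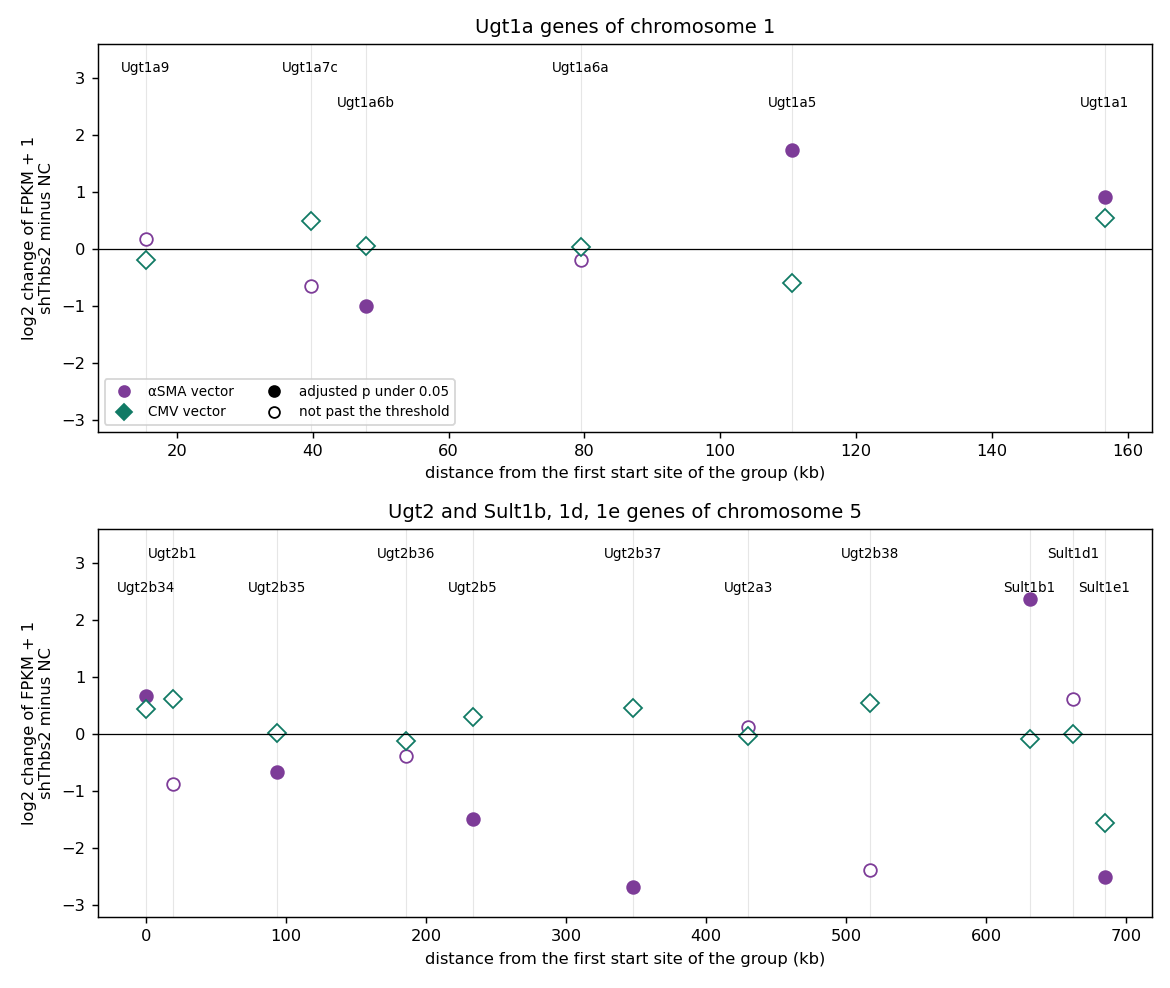
The change in log2(FPKM + 1), shThbs2 minus NC, is plotted against the start site's distance in kb from the first start site of the group, for the Ugt1a locus of chromosome 1 (top) and for the Ugt2 and Sult1 genes of chromosome 5 (bottom), αSMA in purple circles and CMV in green diamonds, filled where the adjusted p is under 0.05. In the lower panel Ugt2b34 (0.68) and Ugt2b5 (-1.49) lie in the same stretch with opposite αSMA changes. Sult1e1 (-2.49), near Sult1b1 (2.37), was tested only through NC and had to differ, so its direction is no support.

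Some neighbouring genes had opposite changes under the αSMA vector and others the same, as the plot along the chromosomes shows for chromosomes 1 and 5. Sult1b1, Sult1d1 and Sult1e1 lie next to each other on the minus strand of chromosome 5 (chr5:87513339-87538195, chr5:87554645-87569027 and chr5:87575969-87591594, GRCm38), and of the 3, Sult1b1 rose (2.37) and Sult1e1, tested only through NC, had a change of -2.49. The adjoining Ugt2 genes held 1 that rose (Ugt2b34, chr5:86889767-86906937) and 2 that fell (Ugt2b5 and Ugt2b35), beside Ugt2b37 at -2.68. Sult2a7 and Sult2a8, neighbours on chromosome 7 (chr7:14465051-14494230 and chr7:14410686-14446769), were both higher (1.39 and 1.95), Sult2a7 only with the limit given above.

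Genes that supply the cofactors changed in the αSMA comparison in both directions. The counts of this and the following lists stand beside 13.3% higher and 22.8% lower, and a median of -0.16, over all features tested under αSMA, and beside 10.2% with an unadjusted p under 0.05 under CMV. Of 9 genes for UDP-glucuronate supply and glucuronide removal, 2 rose and 3 fell, with a median change of -0.22. Ugdh, which makes UDP-glucuronic acid, had 148 and 109 FPKM in αSMA shThbs2 livers, against 308 and 288 in αSMA NC livers (change -1.22, adjusted p = 0.0138). The nucleotide-sugar carriers Slc35b4 (-1.05) and Slc35d2 (1.22) and the nucleotide kinase Nme2 (0.84) also passed. Of 13 tested genes for PAPS supply and sulfate removal, 2 rose and 3 fell, with a median of -0.063. Papss2, which makes PAPS in liver, had 52.8 and 42.1 FPKM in αSMA shThbs2 livers, against 5.92 and 6.16 in αSMA NC livers, a 7.86-fold higher mean (change 2.77, SE 0.17, adjusted p = 0.00305). Its CMV libraries had 56.0 and 68.0 FPKM in shThbs2, against 67.1 and 57.9 in NC, overlapping, and the change differed between vectors by 2.79 (adjusted p = 0.00124). The sulfate carrier Slc26a1 rose (1.12), while the sulfatase Arsa (-0.87) and the phosphatase Impad1 (-0.88) fell. Under CMV, 0 genes of either list passed limma's threshold (0 and 1 at an unadjusted p under 0.05).

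Of 21 tested transcription factors that regulate conjugation genes, 3 rose and 5 fell under αSMA, with a median of -0.26. The receptor gene Nr1i3, which encodes CAR, had 47.5 and 38.7 FPKM in αSMA shThbs2 livers, against 9.30 and 7.29 in αSMA NC livers (change 2.25, adjusted p = 0.00563). Nfe2l2, encoding Nrf2, rose (0.59), and Foxa3 (-1.002) and Ppara (-0.65) fell. Among 20 tested targets of PXR, CAR, AhR and Nrf2, 5 rose and 6 fell, with a median of -0.10. The CAR target Cyp2b10 (2.297) and the AhR target Cyp1a1 (2.19) rose, and the Nrf2 targets Gclc (-3.40) and Txnrd1 (-2.10) fell. Of 11 carriers of conjugates and bile acids, 7 rose and 0 fell by limma (the 7 were also all that had an unadjusted p under 0.05), with a median of 1.00: the 4 of smallest p were the uptake carriers Slco1b2 (2.20), Slc10a1 (1.60) and Slc22a7 (1.99) and the efflux pump Abcc4 (2.73). Under CMV 0 genes of these 3 lists passed limma's threshold, with 1, 8 and 4 at an unadjusted p under 0.05 and medians of 0.0077, -0.28 and 0.15.

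Genes of sex-biased expression in mouse liver were listed because several Sult genes are among them. Under αSMA, 2 of 14 tested male-biased genes rose and 1 fell, and 2 of 15 female-biased genes rose and 1 fell. The median change was -0.65 for the male-biased genes (4 above 0 and 10 below) and 0.22 for the female-biased genes (10 above and 5 below). Female-biased Cyp2a4 had 1457 and 971 FPKM in αSMA shThbs2 livers, against 23.1 and 2.02 in αSMA NC livers (change 7.12, adjusted p = 0.00927), and Cyp2b9 rose by 4.23, while Rtn4 fell (-0.82). Of the male-biased genes, Nudt7 (2.97) and Cyp2u1 (1.02) rose and Cyp4a12b fell (-2.22). Under CMV 0 of either list passed limma's threshold (8 of 15 male-biased and 7 of 16 female-biased at an unadjusted p under 0.05), with medians of 0.82 and -0.44. Xist and Ddx3y were chosen after these values were seen. Xist was at or under 0.02 FPKM in all 4 αSMA libraries. The Y-linked Ddx3y had 52.6 and 91.8 FPKM in αSMA shThbs2 livers, against 33.7 and 37.1 in αSMA NC livers. Under CMV it had 11.8 and 12.3 FPKM in shThbs2 livers, against 10.9 and 12.6 in NC livers. A Y-linked transcript was thus detected in every library.

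Markers of hepatocytes, the main source of these enzymes, summed to 34034 to 39511 FPKM in αSMA shThbs2 livers, against 34818 to 44898 in αSMA NC livers, with 1 of 7 higher (Ttr) and 3 lower (Fgb, Serpina1c and Apob). Their sum was 45203 to 49331 in CMV shThbs2 livers, against 64709 to 65072 in CMV NC livers, with 0 past the threshold and Alb at -0.53 (adjusted p = 0.230). Under αSMA, 3 of 10 stellate and fibroblast markers fell (Acta2, Pdgfrb and Hgf; sums 296 to 439, against 293 to 341), as did 1 of 6 cholangiocyte markers (Sox9; 118 to 203, against 227 to 318) and 1 of 8 endothelial markers (Pecam1; 87.6 to 107, against 96.4 to 137). Of 8 macrophage markers 1 rose (Clec4f) and 1 fell (Adgre1; 420 to 430, against 330 to 438), and of 4 tested lymphocyte markers 1 rose (Nkg7; 6.77 to 8.56, against 5.15 to 7.14). Of the intestinal markers, 1 of 3 tested rose (Lgals4; 453 to 789, against 409.9 to 743), both tested pancreatic markers rose (Cela1 and Cela2a; 35.6 to 36.7, against 10.7 to 13.5), and kidney markers summed to 0.09 FPKM or less. Nkg7 and Cela2a averaged under 1 FPKM in αSMA NC livers and were tested only through shThbs2. They had to differ, so their calls are no support. In the CMV libraries 0 markers of these lists passed limma's threshold, with 2 hepatocyte, 5 stellate, 1 endothelial, 1 cholangiocyte and 2 intestinal markers at an unadjusted p under 0.05. Of the stellate markers, 0 had a CMV change above 0 and 10 below (median -0.38, sums 112 to 121, against 137 to 140). These counts were 2 and 5 for hepatocyte, 4 and 4 for endothelial, 0 and 3 for cholangiocyte and 1 and 2 for intestinal markers. The part of these cell types in the changes of the Ugt and Sult genes was not tested.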

How the data were processed

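FPKM values of 8 mouse liver libraries (2 per group) were deposited by the authors, as a table for each vector with its own normalisation. The submitters' processing notes name build GRCm38 and the tools Bowtie2 2.3.5, HISAT2 2.1.0, HISAT and Cufflinks, without saying which made a given table. Depth is unknown, as no read counts were used, and intervals do not cover counting error; αSMA values are rounded to 2 decimals (19 distinct nonzero values under 0.2 FPKM in its controls).

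Each arm was fitted alone with limma 3.58.1 in R 4.3.3 on log2(FPKM + 1) of features averaging 1 FPKM or more across its 4 libraries, with an intensity trend, no replicate block, two-sided tests and Benjamini-Hochberg adjustment over all features tested (13012 for αSMA, 10916 for CMV). One model of all 8 libraries tested the difference between vectors over 10245 genes. Thbs2 was compared by exact permutation. The procedure was tested on simulated data. Same-numbered libraries deviated together by a correlation of 0.00134 in αSMA and 0.0400 in CMV, so the numbers were not taken to pair mice.

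Members, pathway lists and marker lists were chosen with earlier results of these data known. Members past the threshold were described library by library (at most 12 per arm by size of change, Ugt2b35 being a thirteenth), with the 6 of smallest p where fewer than 5 passed and the 3 most abundant of each family, and at most 4 called genes per pathway list. Gene positions and exons are from GENCODE M21, promoters from RefSeq (GRCm38.p6; 36 of 42 members matched). The alternatives tried were no filter, a filter of 5 FPKM, a pseudocount of 0.1, 4 rescalings, robust empirical Bayes, the joint model, a replicate block and leaving out each library.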

Additional observations from a re-analysis of the deposited data

Results flagged for a closer look

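The change in shThbs2 livers differed between the vectors, by the test of the difference itself (αSMA change minus CMV change on the log2(FPKM + 1) scale, limma over 10245 genes), for 11 of the 22 members tested in both arms, where 25.1% of all genes passed. It was lower under αSMA for Ugt2b37 (-3.14, adjusted p = 0.00658), Ugt2b38 (-2.93, adjusted p = 0.0415), Ugt2b5 (-1.79, adjusted p = 0.00755), Ugt3a1 (-1.73, adjusted p = 0.00322), Ugt2b1 (-1.48, adjusted p = 0.0244), Ugt1a6b (-1.06, adjusted p = 0.00844), Ugt3a2 (-1.03, adjusted p = 0.00864) and Ugt2b35 (-0.68, adjusted p = 0.0354). It was higher under αSMA for Sult1b1 (2.45, adjusted p = 0.00269), Ugt1a5 (2.33, adjusted p = 0.0403) and Sult1a1 (1.48, adjusted p = 0.0231). In every one of the 11 the changes had opposite signs under the vectors, but no CMV change passed its own test. The 11 were picked by the test of this difference, which favours opposite signs. The CMV changes of Ugt2b35 (0.017), Ugt1a6b (0.064) and Sult1b1 (-0.086) were small. These genes and Ugt1a5 changed sign under CMV in at least 1 alternative. Sult1a1, Ugt2b1 and Ugt2b38 did not pass under αSMA either. With no CMV change past its own test, a reversal between vectors is not shown for any of the 11. Ugt1a5 rests on a wide CMV control pair, with 28.1 and 28.4 FPKM in CMV shThbs2 livers, against 23.2 and 79.6 in CMV NC livers. Under αSMA, Ugt2b37 and Ugt2b38 averaged under 1 FPKM in shThbs2 livers and were tested only through NC. In these differences the vector cannot be told apart from the platform or the provider. Groups of 2 libraries are too small for a check of single outlying samples.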

How the results depend on the processing

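With no filter on low values, 1 member was higher and 3 lower under αSMA (1843 of all features), and limma passed 0 features under CMV (9 members at an unadjusted p under 0.05). Scaled to the same FPKM sum, 12 members were lower under αSMA and 4673 features differed between vectors; scaled over nuclear features, 5 features passed under CMV; with a mean of at least 5 FPKM, 1659 differed between vectors; with median centring, 5 members had a lower change under αSMA than under CMV. The replicate block passed 1 member higher under CMV (Sult2a8, adjusted p = 0.0257) and 17 features, 7 members higher and 7 lower under αSMA, and 3 higher and 6 lower between vectors. Leaving out each library in turn gave 0 to 4 members higher and 0 to 5 lower under αSMA (46 to 4137 features), 0 to 3 higher and 0 to 3 lower under CMV (10 to 152 features), and 1 to 3 higher and 5 to 7 lower between vectors (745 to 3183 features). Over all alternatives, the 13 members past the threshold under αSMA kept their sign, 127 of their values staying past the threshold and 53 not.

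The groups of the members past the threshold under αSMA did not overlap. Among the alternatives, only the rescalings could therefore have changed their sign. Members not past the threshold reversed as follows. Under αSMA, the change of Ugt1a9 was -0.23 with the same FPKM sum, -0.023 over nuclear features and -0.012 with quantile normalization; that of Ugt2a3 was -0.27 and -0.069 under the first 2 of these, and that of Ugt1a6a 0.034 with median centring. Under CMV, Sult1d1 was at -0.028 with the same FPKM sum, -0.000409 over nuclear features, -0.029 with median centring and -0.11 with quantile normalization; Ugt2b35 was at -0.013, -0.014 and -0.055 with the same sum, median centring and quantile normalization; and Ugt1a6a at -0.054 and Ugt1a6b at -0.022 with the last. Between vectors, Sult2a8 was at -0.35 with the same sum and -0.18 over nuclear features, and Ugt2b34 at -0.15 with the same sum. Without single libraries the changes ran from -0.19 to 0.46 for Ugt2a3 under αSMA, and under CMV from -0.19 to 0.023 for Sult1b1, -0.055 to 0.059 for Sult1d1, -0.035 to 1.16 for Sult5a1, -1.46 to 0.28 for Ugt1a5, -0.31 to 0.38 for Ugt1a6a, -0.23 to 1.20 for Ugt1a7c, -0.42 to 0.044 for Ugt1a9, -0.087 to 0.031 for Ugt2a3 and -0.013 to 0.047 for Ugt2b35; between vectors Sult2a8 ran from -0.56 to 0.61. The cause of these shifts was not tested. Depth is unknown, so precision at low FPKM cannot be given.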
